A study of Mus musculus with 6 samples.

Results

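The genes described here are Trp53, which encodes the transcription factor p53, and 9 of its target genes (Mdm2, Plk2, Ccng1, Trp53inp1, Sesn1, Phlda3, Zmat3, Aen and Btg2). They were found by symbol: each of the 10 has a single row of its own among 23406 gene symbols in the files, and all 10 are among the 12266 genes that passed the filter on low values (at least 1 FPKM in at least 2 of the 6 libraries). FPKM are fragments scaled to transcript length and library total. The cells were mouse embryonic fibroblasts with OSKM, the reprogramming factors Oct4, Sox2, Klf4 and Myc, at day 7 of reprogramming. WT cells were Adar1 Fl/Fl with vehicle (Veh; 2 libraries), KO cells Adar1 Fl/Fl with 4OHT (2 libraries), HET cells Adar1 Fl/E861A with vehicle (1 library) and MUT cells Adar1 Fl/E861A with 4OHT (1 library). Fl marks a floxed allele, E861A is a change known to abolish the RNA editing activity of ADAR1, and 4OHT (4-hydroxytamoxifen) is the usual inducer of a Cre recombinase, whose driver the labels do not give. All groups carry OSKM and at least 1 floxed Adar1 allele, and no library combines 4OHT with an unfloxed Adar1, so what 4OHT or Cre does by itself cannot be told apart from losing Adar1. Whether the replicates were separate cultures is not in the labels; the p-values therefore rest on the spread of these libraries, which may be technical.

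p53 is activated by DNA damage and other stresses, mainly by stabilisation of the protein, and then switches on genes that stop the cell cycle, repair DNA, alter metabolism or kill the cell. One of these genes, Mdm2, encodes the ubiquitin ligase that marks p53 for destruction, which closes a negative feedback loop; the level of Trp53 mRNA therefore does not report the activity of the protein. In fibroblasts that are being reprogrammed, p53 is known as a barrier that limits how many cells reach the pluripotent state.

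Depth is not stated. The spacing of low FPKM values, with fragments assumed to be 200 bases long, gave a rough estimate of 14850000 to 20450000 fragments behind each library. The regularity of that spacing, scored as a mean cosine, was weak, from 0.127 in WT 2 to 0.347 in WT 1. By this estimate, 243 to 454 fragments lay behind each Sesn1 value. Replicates had a Pearson r of 0.995 in WT and 0.995 in KO across 12266 genes. Adar stood at 19.6 and 19.5 FPKM in WT, 34.2 and 31.3 in KO, 16.96 in HET and 33.0 in MUT; which exons are deleted is not in the labels, so this whole-gene level does not check them. The fibroblast marker Vim was between 1100 and 1842 FPKM in every library. Single markers of leukocytes (Ptprc), endothelium (Cdh5) and neural crest (Sox10) were at most 0.08, 0.05 and 0.38 FPKM, with Cdh5 listed at 0 in KO 1. Other markers on the macrophage, endothelial and neural lists were higher. In WT, Laptm5 stood at 23.4 and 19.9 FPKM, Tek at 2.67 and 2.69 and Stmn2 at 106 and 117, while Adgre1 and Csf1r did not pass the filter. These markers therefore do not settle which of these cell types were present. Among the markers that moved with 4OHT were those of proliferation, with a summed level over 7 genes of 349 and 378 FPKM in WT, 72.2 and 63.0 in KO, 508 in HET and 135 in MUT (7 of 7 fell in KO), those of pluripotent cells (8 of 8 fell, from a sum of 599 and 478 FPKM in WT to 21.5 and 7.87 in KO, with 619 in HET and 42.5 in MUT) and 5 of 7 fibroblast markers (which fell; the sum over all 7 was 5029 and 4620 FPKM in WT, 2664 and 2736 in KO, 4556 in HET and 3437 in MUT). Of the tested markers on the remaining lists, 5 of 5 epithelial, 3 of 3 neural, 3 of 4 endothelial and 1 of 2 macrophage markers fell, and 1 endothelial marker rose. The calls on all marker lists are limma's for KO against WT at an adjusted p under 0.05. By that rule 29.5% of all tested genes were higher and 28.2% lower. The summed levels in WT and KO were 144 and 158 against 42.1 and 56.0 FPKM (neural) and 6.03 and 5.90 against 5.40 and 5.37 (endothelial). The macrophage sum, at least 21.4 FPKM in WT and at most 5.23 in KO, was mostly Laptm5 (3.31 and 2.83 FPKM in KO). The part of these marker changes in the results on p53 genes was not tested. In bulk RNA, a change in the number of cells of a type and a change of RNA per cell cannot be told apart.

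The reference windows at the starts of these genes were searched for sequence resembling a p53 site. RefSeq windows on GRCm38.p6, from 250 bases before to 50 bases after each start, were at hand for 8 of the 10 genes (10 windows, since Aen and Sesn1 have 2 starts each); Trp53inp1 and Zmat3 have none. The p53 decamer, the 10-base unit that occurs as a pair in p53 response elements and reads the same on both strands, was found in windows of 5 genes. It was in 6 of the 10 windows, against 8.36% of all 32851 windows; both Aen windows overlap and hold the same match, here and in the counts that follow, so the 6 are 5 distinct sites. Another pattern, a pair of cores (CNNG with A or T at each N, then any 6 bases, then the same core), was searched on both strands. It was in 4 of 10 windows, in Aen, Trp53 and Plk2 (3 distinct sites), against 7.22% of all windows. In Aen and Trp53 it overlaps the decamer, and the Plk2 window holds no decamer. The same pattern with CATG as both cores was in 0 of 10, against 0.712%. The stretches below are shown because these genes are the ones whose levels are described next; capitals mark the decamer or, in Plk2, the pair of cores.
Trp53: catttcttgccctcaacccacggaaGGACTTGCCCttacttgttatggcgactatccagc
Mdm2: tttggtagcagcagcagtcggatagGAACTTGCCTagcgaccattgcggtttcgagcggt
Ccng1: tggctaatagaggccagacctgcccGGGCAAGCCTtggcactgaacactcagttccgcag
Sesn1: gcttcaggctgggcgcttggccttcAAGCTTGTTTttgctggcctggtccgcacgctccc
Aen: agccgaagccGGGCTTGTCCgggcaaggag
Plk2: tcgctCTTGCTCGCACAAGcgaag
The stretches lie at chr11:69580259-69580318 (Trp53, plus strand), chr10:117710910-117710969 (Mdm2, minus strand), chr11:40755437-40755496 (Ccng1, minus strand), chr10:41887241-41887300 (Sesn1, plus strand, the downstream of its starts), chr7:78895927-78895956 (Aen, plus strand) and chr13:110395036-110395059 (Plk2, plus strand). The first capital is 75 bases before the start in Trp53, 186 in Mdm2, 185 in Ccng1, 173 in Sesn1 and 3 in Plk2. In Aen it is 11 bases into the transcript from the upstream start and 121 bases before the downstream one. In Ccng1 the decamer is preceded by a near copy, so that 19 of 20 positions fit a pair of decamers; a fit of at least 19 occurs in 0.0883% of all windows. The same count was 17 in Trp53, Sesn1 and Aen and 15 in Mdm2 and Plk2; 5 of the 10 windows reached at least 17, against 6.29% of all windows. This count was added after the matches had been seen. Btg2 and Phlda3 held neither pattern in these windows, whose RefSeq starts lie 35 and 34 bases upstream of the nearest GENCODE transcript start. The deposited loci of Phlda3 and Mdm2 begin 1699 and 1500 bases further upstream than the RefSeq starts, and that sequence was not searched. In no gene was the sequence further into the gene searched, introns included. The matches shown therefore need not be the sites through which p53 acts on these genes. A match is a description of letters, and no binding was measured.

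**Figure D1:**
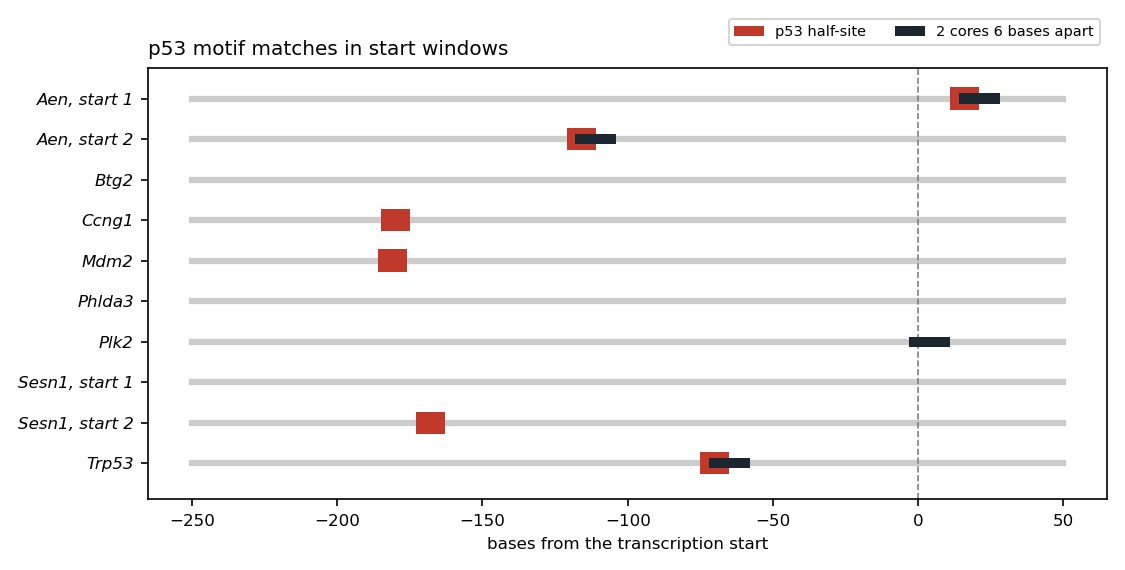
Positions of p53 motif matches in the start windows of 8 genes. The horizontal axis gives bases from the transcription start (dashed line), grey bars are the windows searched, red boxes the decamer and black boxes the pair of cores. Matches lie upstream of the start in Ccng1, Mdm2, Trp53 and the second windows of Aen and Sesn1, and at the start in Plk2.

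KO was set against WT to see what losing ADAR1 does. Of the 10 genes, 6 rose in KO (Mdm2, Plk2, Ccng1, Phlda3, Aen and Btg2), 2 fell (Trp53 and Sesn1) and 2 were not called (Trp53inp1 and Zmat3) by limma at an adjusted p under 0.05. Among all tested genes 57.7% were called, 29.5% higher and 28.2% lower. The median difference of the 10 genes was 0.42 on the log2(FPKM + 1) scale and that of all tested genes 0.02. The same 6 genes had both KO libraries above both WT libraries and the same 2 had both below; over all tested genes the corresponding shares were 40.9% and 38%. All differences below are on the log2(FPKM + 1) scale, which understates the change of low genes, and SEs are limma's moderated values.

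**Figure D2:**
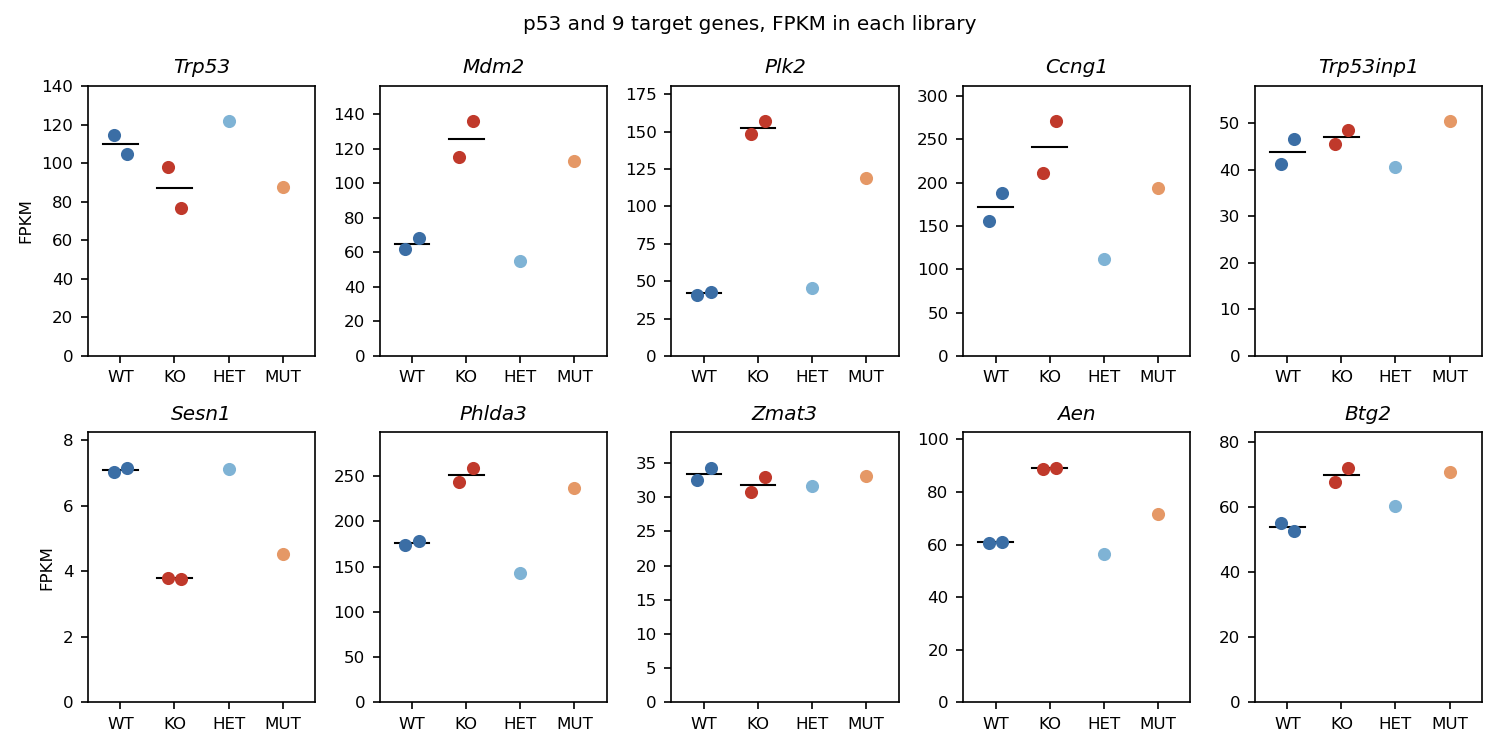
FPKM of p53 and 9 target genes in each library. The vertical axes start at 0 and differ between panels, points are libraries (2 in WT and KO, 1 in HET and MUT) and lines are means of 2. Mdm2, Plk2, Phlda3, Aen, Ccng1 and Btg2 were higher in both KO libraries than in both WT libraries, Trp53 and Sesn1 were lower, and Trp53inp1 and Zmat3 overlapped.

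Trp53 (ENSMUSG00000059552.13, protein-coding, plus strand, GRCm38 chr11:69580359-69591873) was a well expressed gene that fell modestly in KO. The values were 115 and 105 FPKM in WT, 97.9 and 76.6 in KO, 122 in HET and 87.9 in MUT. Every 4OHT library was below every vehicle library, and KO 1 lay nearer to WT 2 than to KO 2. The mean was 110 ± 7.05 FPKM in WT and 87.3 ± 15.1 in KO (SD, n = 2 each), a ratio of 0.795 and a difference of -0.34 (SE 0.12, limma adjusted p = 0.0378). This call rested on single libraries and on settings. The limma adjusted p was 0.103 with no filter on low values and 0.0533 with no trend in the variance, and the call was also lost without WT 1, WT 2 or KO 2. The difference was -0.16 without KO 2 and -0.51 without KO 1. It was negative under all 14 alternatives, but several of these, such as filters and trend, cannot change it.

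Mdm2 (ENSMUSG00000020184.15, protein-coding, minus strand, GRCm38 chr10:117688875-117710758), the feedback ligase, moved the other way. Its level was 61.8 and 68.0 FPKM in WT, 115 and 136 in KO, 55.2 in HET and 113 in MUT, so the 4OHT libraries did not overlap the vehicle libraries. From a WT mean of 64.9 ± 4.36 FPKM it rose 1.93-fold to 125 ± 14.7 in KO (SD, n = 2 each; difference 0.94, SE 0.11, limma adjusted p = 4.25e-05), and it was called under all 14 alternatives. Mdm4, the related protein that binds p53 and restrains its transcriptional activity, fell in the same libraries, from 34.8 ± 3.14 to 22.5 ± 1.80 FPKM (difference -0.61, SE 0.11, limma adjusted p = 0.000714). In HET Mdm4 was at 40.3 FPKM, and in MUT at 26.3.

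Set against each other within a library, the levels of this loop changed order. The ratio of Mdm2 to Trp53 in FPKM was 0.539 and 0.649 in WT, 1.17 and 1.78 in KO, 0.453 in HET and 1.28 in MUT. Mdm2 thus had fewer FPKM than Trp53 in each vehicle library and more in each 4OHT library. The ratio of Mdm2 to Mdm4 was 1.90 and 1.84 in WT, 5.43 and 5.72 in KO, 1.37 in HET and 4.29 in MUT. A ratio shows unequal change of its 2 genes and nothing about either alone. These ratios were chosen after the values were seen and carry no test.

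**Figure D3:**
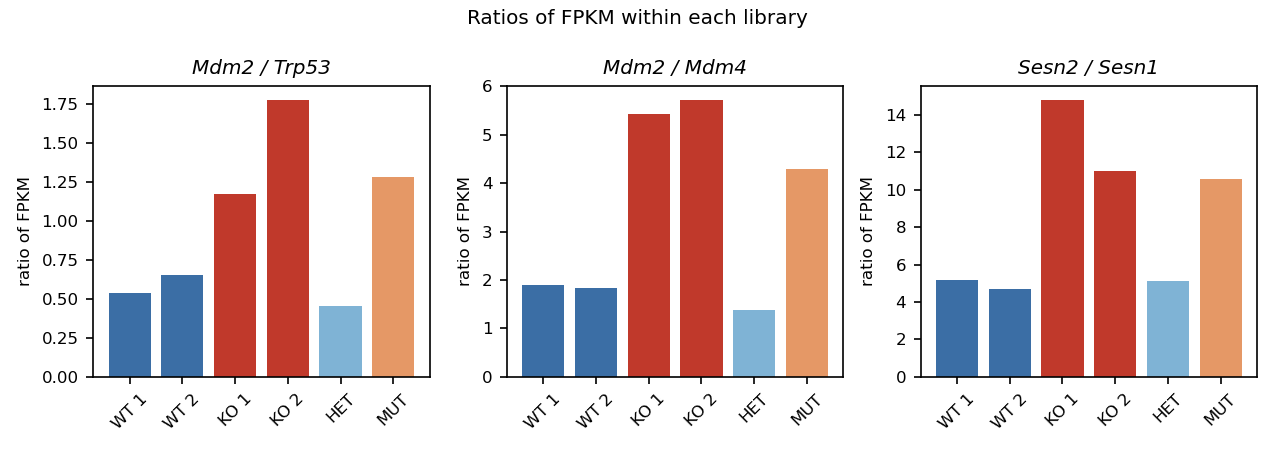
Ratios of FPKM within each of the 6 libraries, with axes from 0 and 1 bar per library (blue shades vehicle, red and orange 4OHT). The Mdm2 to Trp53 ratio lay between 0.453 and 0.649 in vehicle libraries and between 1.17 and 1.78 in 4OHT libraries, and the ratios of Mdm2 to Mdm4 and of Sesn2 to Sesn1 were likewise higher in every 4OHT library.

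Among the targets that act on cell division, Plk2 showed the largest difference of the 10 genes. Plk2 (ENSMUSG00000021701.8, plus strand, GRCm38 chr13:110395046-110400844) encodes a polo-like kinase of centriole duplication and the stress response. It was at 40.6 and 42.9 FPKM in WT, 148 and 157 in KO, 45.6 in HET and 119 in MUT. Vehicle libraries lay close together and every 4OHT library was well above them. Plk2 rose 3.65-fold in KO, from 41.7 ± 1.66 to 152 ± 6.24 FPKM (SD, n = 2 each; difference 1.84, SE 0.09, limma adjusted p = 1.23e-07).

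Ccng1 (ENSMUSG00000020326.7, minus strand, GRCm38 chr11:40748552-40755311) encodes cyclin G1, which recruits the phosphatase PP2A to partners such as MDM2. Its values were 156 and 188 FPKM in WT, 211 and 271 in KO, 112 in HET and 194 in MUT. The groups did not overlap, but the KO libraries differed from each other by more than KO 1 differed from WT 2. Ccng1 rose from 172 ± 22.6 to 241 ± 42.4 FPKM (SD, n = 2 each; difference 0.48, SE 0.14, limma adjusted p = 0.0114). The call was lost without WT 1 (limma adjusted p = 0.13) and with no filter (limma adjusted p = 0.0608).

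Btg2 (ENSMUSG00000020423.6, minus strand, GRCm38 chr1:134075170-134079120) encodes an antiproliferative protein that brings the CCR4-NOT deadenylase to mRNAs. Its level was 55.01 and 52.7 FPKM in WT, 67.5 and 72.0 in KO, 60.3 in HET and 70.8 in MUT. Btg2 rose in KO by 0.37 (SE 0.09, limma adjusted p = 0.00723), which was the smallest rise among the 6 called genes; without WT 2 the limma adjusted p was 0.0587. Its level in HET lay between those of WT and KO.

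The targets tied to cell death and survival split into those that rose and those that were not called. Phlda3 (ENSMUSG00000041801.5, plus strand, GRCm38 chr1:135766119-135769136) encodes a PH-domain protein that keeps the survival kinase AKT from the membrane. Phlda3 had 174 and 179 FPKM in WT, 244 and 259 in KO, 143 in HET and 237 in MUT, with no overlap between 4OHT and vehicle. Phlda3 rose from 176 ± 3.51 to 252 ± 10.8 FPKM (SD, n = 2 each; difference 0.51, SE 0.09, limma adjusted p = 0.000997). Aen (ENSMUSG00000030609.18, plus strand, GRCm38 chr7:78895854-78911209) encodes a nuclease that promotes apoptosis. Its replicates were close to each other, at 60.7 and 61.1 FPKM in WT and 88.8 and 89.2 in KO, with 56.4 in HET and 71.6 in MUT. Aen rose 1.46-fold in KO (difference 0.54, SE 0.09, limma adjusted p = 0.000557), and MUT lay between the vehicle libraries and KO. Phlda3 and Aen were called under all 14 alternatives.

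Trp53inp1 and Zmat3 were well expressed without a called change. Trp53inp1 (ENSMUSG00000028211.11, plus strand, GRCm38 chr4:11156431-11174379) encodes a stress-induced protein of apoptosis and autophagy. It was at 41.1 and 46.5 FPKM in WT, 45.4 and 48.4 in KO, 40.6 in HET and 50.4 in MUT. The WT and KO values overlapped (difference 0.10, SE 0.10, limma adjusted p = 0.435). Zmat3 (ENSMUSG00000027663.12, minus strand, GRCm38 chr3:32334792-32366014) encodes a zinc-finger RNA-binding protein that regulates splicing. All 6 of its values fell in a narrow range, 32.5 and 34.3 FPKM in WT, 30.7 and 33.0 in KO, 31.7 in HET and 33.1 in MUT (difference -0.07, SE 0.10, limma adjusted p = 0.568). Neither gene was called under any of the 14 alternatives. A p above the threshold does not show that the levels were equal.

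Sesn1 (ENSMUSG00000038332.13, plus strand, GRCm38 chr10:41809935-41908424) was the one target among the 9 that fell. It encodes sestrin 1, which restrains the growth kinase complex mTORC1 and limits oxidative damage. The values were 7.04 and 7.16 FPKM in WT, 3.798 and 3.77 in KO, 7.14 in HET and 4.53 in MUT. Vehicle libraries lay close together, and every 4OHT library was lower. The KO mean was 0.533 of the WT mean (3.78 ± 0.02 against 7.10 ± 0.09 FPKM, SD, n = 2 each; difference -0.76, SE 0.11, limma adjusted p = 0.000142), and Sesn1 was called lower under all 14 alternatives. A gene of unvalidated type, 9930024M15Rik, overlaps Sesn1 on the same strand. Sesn2, a paralog also known as a target of ATF4 in the integrated stress response, rose from 35.03 ± 1.99 to 48.8 ± 10.4 FPKM (difference 0.45, SE 0.14, limma adjusted p = 0.0151). Sesn3 fell from 22.7 ± 1.80 to 17.8 ± 1.18 FPKM (difference -0.33, SE 0.10, limma adjusted p = 0.019). The ratio of Sesn2 to Sesn1 was 5.18 and 4.69 in WT, 14.8 and 11.0 in KO, 5.10 in HET and 10.6 in MUT.

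MUT was set against HET to see the effect of being left with the E861A allele alone. With 1 library on each side there is no replicate error, and the differences are given without a test. Of the 10 genes 9 had the same sign as in KO against WT, the exception being Zmat3 (0.06, against -0.07). The share of all tested genes with the same sign was not counted, so this number cannot be called particular to these genes. At least 1.5-fold higher in MUT on this scale were 4 genes, Plk2 (1.36), Mdm2 (1.02), Ccng1 (0.78) and Phlda3 (0.72), and 0 were that much lower; over all tested genes 14.1% were at least 1.5-fold higher and 16.7% at least 1.5-fold lower. Between the 2 WT libraries the shares were 0.473% and 0.367%, and between the 2 KO libraries 0.359% and 0.514%. Sesn1 and Trp53 were lower in MUT (-0.56 and -0.47), and Aen, Trp53inp1 and Btg2 were higher by 0.34, 0.31 and 0.23. In plain FPKM, without the 1 added, Sesn1 in MUT was at 0.635 of HET, which is more than 1.5-fold lower.

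**Figure D4:**
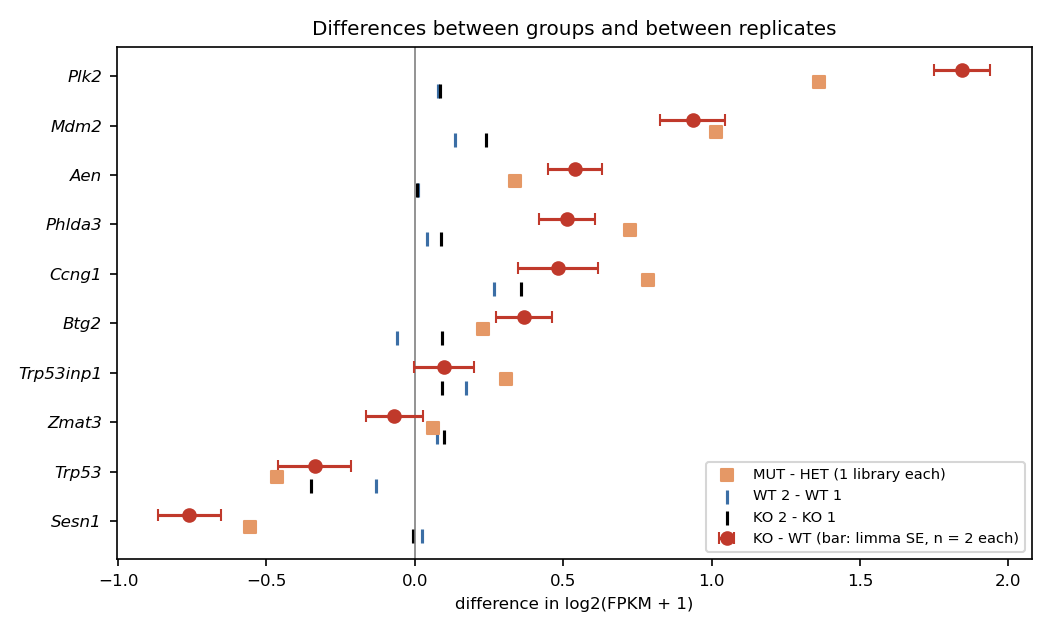
Differences in log2(FPKM + 1) for the 10 genes, ordered by KO minus WT. Red circles are KO minus WT with limma's SE (n = 2 each), orange squares MUT minus HET (1 library each), and ticks the differences between the replicates of WT (blue) and of KO (black). Plk2 had the largest difference in both backgrounds (1.84 and 1.36) and Sesn1 the lowest (-0.76 and -0.56), while the replicates of Ccng1, Mdm2 and Trp53 differed more than those of the other genes in KO.

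The difference between both effects was tested in 1 limma fit over 6 libraries, in which the spread comes from WT and KO alone and HET and MUT are assumed to vary like them. For 0 of the 10 genes was the MUT effect called different from the KO effect, with 1 at an unadjusted p under 0.05; over all tested genes 4.01% were called, 3.07% higher and 0.946% lower. That 1 gene was Plk2, whose effect was smaller in MUT by 0.48 (MUT effect minus KO effect -0.48, SE 0.16, limma adjusted p = 0.152). For the other 9 the difference ranged from -0.20 (Aen, SE 0.16) to 0.30 (Ccng1, SE 0.23), and limma called none of them.

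Taking both backgrounds in 1 fit, with 3 libraries of 4OHT against 3 of vehicle and the allele background as a term, gave the same calls, 6 higher and 2 lower, against 57.4% of all tested genes called, 29.2% higher and 28.2% lower. This fit shares the WT and KO libraries with the comparison above and is not independent of it. Plk2 rose by 1.68 (SE 0.11), Mdm2 by 0.96 (SE 0.10), Ccng1 and Phlda3 by 0.58 (SE 0.13 and 0.09), Aen by 0.47 (SE 0.08) and Btg2 by 0.32 (SE 0.08). Sesn1 fell by 0.69 (SE 0.09) and Trp53 by 0.38 (SE 0.11, limma adjusted p = 0.0173; 0.0715 without WT 1 and 0.0569 without KO 2). For these 8 genes the 3 libraries of one treatment did not overlap the 3 of the other, which over all tested genes held for 30.6% upward and 29.3% downward. The Btg2 call was lost without WT 2 (limma adjusted p = 0.0568).

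For the state before 4OHT, HET was set beside the range of the WT libraries. HET lay below both WT libraries for 6 genes, above both for 3 and between them for Sesn1. The widest gap was that of Ccng1, with 112 FPKM in HET, 0.654 of the WT mean, followed by Phlda3, at 0.811. After 4OHT, MUT lay below both KO libraries for 5 genes (Plk2 at 0.778, Aen at 0.804, Ccng1 at 0.806, Mdm2 at 0.898 and Phlda3 at 0.940 of the KO mean), above both for Trp53inp1, Sesn1 and Zmat3, and between them for Trp53 and Btg2. With 1 library on 1 side these gaps carry no test. The shares of all tested genes that lay outside the replicate pair were not counted. These counts therefore cannot be called particular to these genes or read as a difference between the backgrounds. An effect of the background cannot be told apart from that of its single library.

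FPKM are per length, so levels can be ordered within a group. In WT the order of mean FPKM was Phlda3 (176), Ccng1 (172), Trp53 (110), Mdm2 (64.9), Aen (60.9), Btg2 (53.9), Trp53inp1 (43.8), Plk2 (41.7), Zmat3 (33.4) and Sesn1 (7.10). Phlda3 and Ccng1 overlapped there, as did Trp53inp1 and Plk2, and the other neighbours did not. In KO, Phlda3 (252) and Ccng1 (241) again led and overlapped, Plk2 (152) had moved from place 8 to place 3, and Trp53 (87.3) from place 3 to place 6, where it overlapped Aen (89.0). Sesn1 was the lowest of the 10 in every library.

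Other genes of the pathway, from lists chosen by function, moved both ways. The counts in this and the following lists stand beside 29.5% of all tested genes called higher in KO and 28.2% called lower. No list was tested against those shares. Of 18 regulators of p53 with a row of their own, 6 rose, 7 fell and 5 were not called in KO (median difference -0.06). Chek2, the checkpoint kinase that phosphorylates p53, fell from 10.7 ± 0.24 to 5.64 ± 0.07 FPKM (difference -0.81, SE 0.10, limma adjusted p = 6.58e-05). Usp7, a deubiquitinase of MDM2 and p53, fell from 40.1 ± 1.42 to 27.1 ± 0.54 FPKM, while Rchy1, another ubiquitin ligase of p53 and itself a target, rose from 32.02 ± 0.03 FPKM to 45.6 and 54.4 in the KO libraries. Cdkn2a, whose locus encodes the MDM2 inhibitor ARF and the CDK inhibitor p16, rose from 215 ± 1.498 to 307 ± 27.8 FPKM (difference 0.51, SE 0.10, limma adjusted p = 0.00162); its transcripts are not separated here. HET and MUT stood at 160 and 217 FPKM for Cdkn2a.

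Among 8 other targets of cell cycle arrest, 3 rose, 4 fell and 1 was not called. Cdkn1a, which encodes the CDK inhibitor p21, was at 299 and 276 FPKM in WT, 479 and 514 in KO, 248 in HET and 426 in MUT, with no overlap between treatments. Cdkn1a rose by 0.79 (SE 0.10, limma adjusted p = 7.69e-05). Gadd45a, a growth arrest and stress gene, rose from 44.7 ± 2.67 to 146 ± 21.6 FPKM (difference 1.68, SE 0.12). Ckap2, a spindle protein, fell from 38.0 ± 3.38 to 10.9 ± 0.06 FPKM. Sfn, the epithelial 14-3-3 sigma protein, fell from 90.0 ± 7.05 to 29.3 ± 0.33 FPKM, with 131 FPKM in HET and 11.9 in MUT. In the same libraries the summed level of 5 epithelial markers was 124 and 138 FPKM in WT, 10.3 and 8.76 in KO, 164 in HET and 11.6 in MUT, and that of the proliferation markers fell as given above; their part in Sfn and Ckap2 was not tested.

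Other apoptosis targets numbered 14, with 4 that rose, 5 that fell and 5 without a call (median -0.14). Bid, a BH3-only protein, rose from 17.3 ± 0.53 to 33.1 ± 2.22 FPKM (difference 0.90, SE 0.10, limma adjusted p = 2.81e-05). Ei24, a protein of the endoplasmic reticulum membrane, fell from 81.2 ± 2.01 to 48.9 ± 3.14 FPKM, and Steap3, a metalloreductase, from 38.5 ± 3.89 to 20.2 ± 3.14 FPKM. Bbc3, which encodes the cell killer PUMA, was not called, with 27.3 and 24.3 FPKM in WT, 26.8 and 21.1 in KO, 29.997 in HET and 31.8 in MUT (difference -0.11, SE 0.12, limma adjusted p = 0.476). Bax shares its row with the ferritin gene Ftl1, so its own level is not known. The shared row held 4344 and 4195 FPKM in WT, 7212 and 7494 in KO, 3474 in HET and 5981 in MUT. It rose by 0.78 (SE 0.11, limma adjusted p = 0.00015). Quantile normalization gives a row of equal rank in every library the same value, and there the difference was 0. The other scalings kept the rise (difference 0.76 and 0.74).

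Of 17 targets in DNA repair, metabolism and secretion, 7 rose, 1 fell and 9 were not called (median 0.16). The noncoding Pvt1 rose from 8.11 ± 0.46 to 17.3 ± 0.13 FPKM (difference 1.003, SE 0.10, limma adjusted p = 1.33e-05). Pvt1 stands on 2 rows, and with its rows summed the difference was 0.87. The stress cytokine Gdf15 rose from 8.42 ± 1.32 to 18.4 ± 2.55 FPKM. Gdf15 also answers to the integrated stress response. The gene that fell was Gls2, a glutaminase, listed at 0.99 and 1.58 FPKM in WT and 0.13 and 0.16 in KO; it was named after its values were seen. The repair gene Ddb2, also named after its values were seen, stood at 3.10 and 3.31 FPKM in WT and 3.16 and 3.29 in KO (difference 0.01, SE 0.11, limma adjusted p = 0.96).

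**Figure D5:**
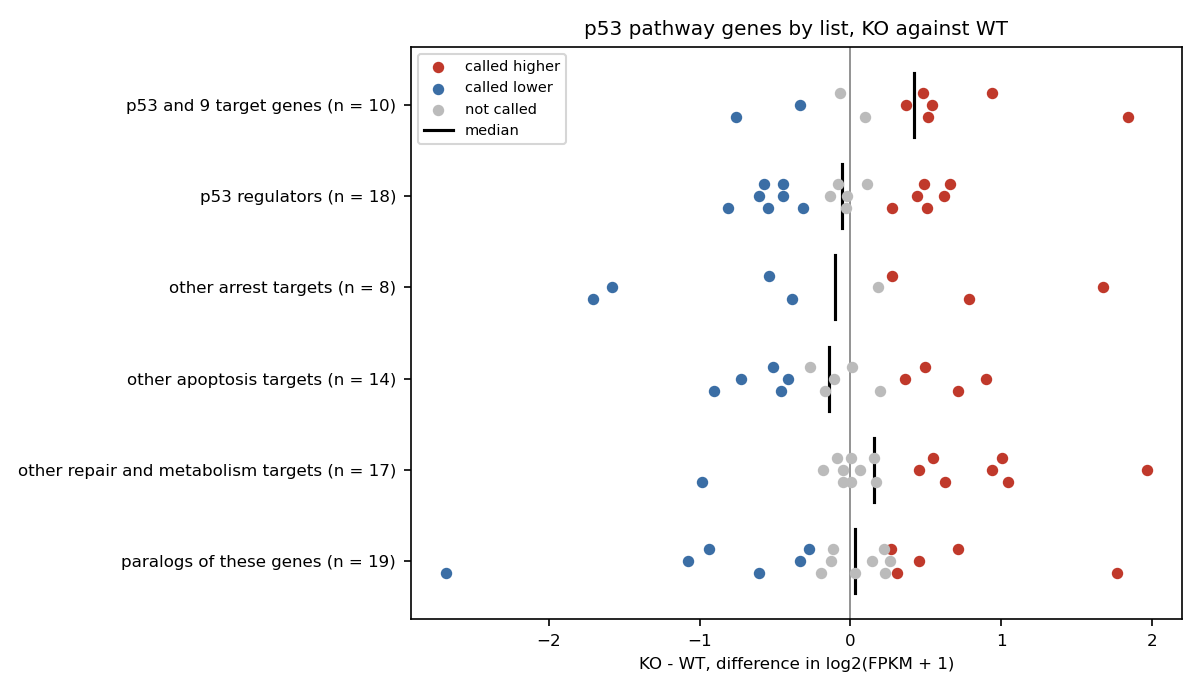
KO minus WT differences in log2(FPKM + 1) for each tested gene of the p53 lists with a row of its own, coloured by limma's call (red higher, blue lower, grey not called at an adjusted p of 0.05), with vertical black lines at list medians. The 10 genes described here have a median of 0.42, and the other lists lie on both sides of 0 with medians between -0.14 and 0.16.

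Paralogs of the 10 genes also moved both ways, beside 29.5% of all tested genes called higher in KO and 28.2% called lower. Of 19 tested, 5 rose, 6 fell and 8 were not called (median 0.03); the number that rose was 2 without WT 2, 3 without KO 2 and 3 with no filter on low values. Mdm4 and Sesn2 stand in this list and in one of those above. Plk1, the mitotic kinase, fell from 56.1 ± 2.19 to 7.91 ± 1.07 FPKM and Plk4, the centriole kinase, from 7.94 ± 1.20 to 3.65 ± 0.12 FPKM, while Plk2 rose. Isg20, an interferon-induced exonuclease related to Aen, rose from 7.12 ± 0.50 to 27.0 ± 6.43 FPKM (difference 1.77, SE 0.15, limma adjusted p = 3.15e-06). The p53 relatives Trp63 and Trp73 did not pass the filter and stood at no more than 0.58 and 0.40 FPKM in any library.

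In MUT against HET the same lists, taken at a difference of at least 1.5-fold and without a test, held 1 of 18 regulators higher and 5 lower, 2 of 8 arrest targets higher and 2 lower, 2 of 14 apoptosis targets higher and 2 lower, 4 of 17 repair and metabolism targets higher and 2 lower, and 2 of 19 paralogs higher and 6 lower, beside 14.1% higher and 16.7% lower over all tested genes. Gadd45a was at 31.0 FPKM in HET and 111 in MUT, Gdf15 at 6.26 and 19.9, and Isg20 at 4.22 and 21.2. Lower in MUT were Plk1, at 85.0 FPKM in HET and 16.7 in MUT, Ckap2, at 47.1 and 20.8, and Chek2, at 12.4 and 6.09. In the same libraries the summed proliferation markers, Plk1 among them, were at 508 and 135 FPKM.

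Likeness over the 6 libraries was sought among 8403 genes averaging 5 FPKM or more. Small RNAs, predicted genes (Gm, Rik and LOC names) and rows naming several genes were left out. The genes compared whose log2(FPKM + 1) was most like that of Trp53 were Gcn1l1, Arid1a and Natd1 (Pearson r of 0.998, 0.997 and 0.992). For Mdm2 they were Sik2, Slc25a33 and Lima1 (0.999, 0.998 and 0.998). Trp53 and Mdm2 had an r of -0.935 with each other. All 6 points fall by treatment, so these values are descriptions.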

How the data were processed

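The genes and lists were chosen with earlier results of these data known. Per the labels' protocols, RNA was total RNA (TRIzol) without ribosomal RNA. TopHat2 2.1.1, Bowtie2 2.3.0, Cufflinks 2.2.1, GRCm38 and mm10 appear, without roles, in the submitters' processing notes; annotation, strand use and scaling were not given in the sources used here. FPKM were deposited by the authors for each gene row, per the file headers, written with decimal commas. Of 24879 rows, 1021 name no gene and were dropped. A symbol on several rows (314 symbols) was read from its row of highest mean. Rows naming several genes (528 of the symbols kept) were kept whole and not counted in lists.

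The scale was log2(FPKM + 1), and limma 3.58.1 under R 4.3.3 gave the tests (lmFit, eBayes with trend; two-sided; Benjamini-Hochberg over 12266 genes; called under 0.05). The fit was tested on simulated data. SDs are over FPKM of 2 libraries. Alternatives were pseudocount, filters, 3 scalings, trend, row choice, replicate block, pooled groups and leaving out each library. Genes named beyond the 10 are the 3 of smallest p among those called in each list and Cdkn1a, Bbc3, Bax, Mdm4 and Cdkn2a; Sesn2, Sesn3, Trp63, Trp73, Phlda1 and others so marked were named after their values were seen. One gene that the rule names is not reported here. Gene positions are from GENCODE M 21 on GRCm38, and Cop1 was matched by its older symbol.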

Additional observations from a re-analysis of the deposited data

Results flagged for a closer look

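No group has 4 or more libraries, so no library could be tested as standing apart within its group. Of 84 tested genes in the p53 set and the pathway lists, 3 (3.57%) had a MUT effect that differed from the KO effect by the limma test of that difference, a share near the 4.01% of all tested genes. All 3 calls were lost with no filter on low values (limma adjusted p = 0.117 for Sfn, 0.199 for Steap3 and 0.17 for Phlda1), and that of Phlda1 also without WT 2 (limma adjusted p = 0.0588); under the other of 12 alternatives they were called. For Sfn the MUT effect minus the KO effect was -1.77 (SE 0.17, limma adjusted p = 0.000609), with 131 FPKM in HET and 11.9 in MUT against 90.0 in WT and 29.3 in KO. For Steap3 it was 1.21 (SE 0.21, limma adjusted p = 0.0135): Steap3 fell in KO, whereas MUT, with 28.7 FPKM, was above HET, with 23.1. For Phlda1, a paralog of Phlda3, it was -0.98 (SE 0.18, limma adjusted p = 0.0159), with 51.0 FPKM in HET and 29.8 in MUT against 38.0 in WT and 44.6 in KO. HET and MUT are 1 library each, so a library that stands apart cannot be told apart from an effect of the allele.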

How the results depend on the processing

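Of 140 alternative values for the 10 genes in KO against WT, 131 kept their direction and call, 8 lost the call (5 of Trp53, 2 of Ccng1 and 1 of Btg2) and 1 changed sign without a call (Trp53inp1, -0.015 with quantile normalization). Filters, trend, row choice, replicate block and pooled groups leave the difference of each of these genes as it was. They can move only its p, so for them a kept direction was fixed in advance. The number called lower was 1 in place of 2 with no filter and with no trend. Leaving out 1 library gave 5 to 6 called higher and 1 to 2 called lower (1 without WT 1, WT 2 or KO 2), and 5739 to 6849 genes called. Bbc3 ranged from -0.276 to 0.057, above 0 without KO 2. With the replicate block, 7959 genes were called (7080 without it), with 6 of the 10 genes higher and 2 lower as before; deviations of same-numbered libraries had a correlation of 0.183, but 2 pairs cannot show that the number pairs them.

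For the difference between effects, the genes called (492, of which 376 higher and 116 lower) fell to 0 with no filter, with 2814 at an unadjusted limma p under 0.05; 187 were lower with quantile normalization. Leaving out 1 library gave 286 (without WT 2) to 1192 (without KO 1), with 206 to 742 higher and 80 to 450 lower, and 904 without KO 2. Trp53 ranged from -0.305 to 0.047 and Mdm2 from -0.039 to 0.199, changing sign without KO 1. In 4OHT against vehicle, leaving out 1 library gave 5 to 6 of the 10 genes higher and 1 to 2 lower (1 without WT 1 or KO 2). Over all tested genes these exclusions gave 2889 to 3621 higher and 2897 to 3464 lower. Zmat3 ranged from -0.069 to 0.015, above 0 without WT 2 (0.0082) or KO 1. The cause of these changes was not tested.

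In MUT against HET, 1 gene (Sesn1, -0.64) was at least 1.5-fold lower with a pseudocount of 0.1. A limma fit that took the spread of MUT and HET from the WT and KO pairs left the differences as they were, from -0.56 (Sesn1) to 1.36 (Plk2). Its calls are not given, since the share of all tested genes that it called was not counted. By the rough estimate of depth, Sesn1 had the fewest fragments of these genes. Having 2 replicates at most limits every small difference.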
